A study of Mus musculus with 12 samples.

Results

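The 9 genes described here are the TGF-beta ligands Tgfb1, Tgfb2 and Tgfb3, the receptors Tgfbr1, Tgfbr2 and Tgfbr3, the signal transducer Smad3, and the feedback inhibitors Smad7 and Pmepa1. They were taken by name from a deposited table of 24454 Entrez gene IDs in 12 RNA-seq libraries, and all 9 were found. The libraries came from 3 mesenchymal mouse breast cancer lines harvested 48 hours after siRNA transfection, which either targeted Nrf2 (siNrf2) or was non-targeting (siCtl), with 2 libraries in each of the 6 groups. Nrf2, encoded by Nfe2l2, activates genes of the antioxidant response. PyMT-1099 LT and Py2T LT came from mammary tumours of MMTV-PyMT mice, which express the polyoma middle T oncogene from a mammary promoter. MT∆Ecad came from a mammary tumour of the MMTV-Neu strain, and its name marks the loss of E-cadherin. All lines were grown in the same serum-containing medium, and no TGF-beta is named in it. The suffix LT is used elsewhere for cells kept long-term in TGF-beta, but such a treatment is not given in the sources used here. Tumour of origin, E-cadherin status and any earlier TGF-beta exposure differ together between the lines, so their parts in a difference between lines cannot be told apart.

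TGF-beta ligands are secreted in a latent form and, once released, bind the type II receptor Tgfbr2, which phosphorylates the type I receptor Tgfbr1. Tgfbr1 then phosphorylates Smad2 and Smad3, which enter the nucleus with Smad4 and switch on target genes, among them the inhibitors Smad7 and Pmepa1 that damp the same signal. Tgfbr3, also called betaglycan, is a coreceptor that presents ligand, Tgfb2 above all, to Tgfbr2. In breast cancer cells the pathway is known for driving epithelial-mesenchymal transition.

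The promoters of the members were searched for the element bound by Nrf2 and for those bound by Smads. Windows of Tgfbr2, Tgfbr1 and Tgfb2 held a match. Levels of these genes differed between the lines, as did those of Tgfb1 and Smad3, whose windows held none. Tgfbr2 rose with siNrf2 in MT∆Ecad, while Tgfbr1 overlapped its siCtl libraries there. Of the windows that hold a match, 3 are shown. Each runs from 250 bases before to 50 bases after a RefSeq start site (GRCm38.p6), 5′ to 3′ on the gene's strand, and capitals mark the matched motif.
Tgfbr2, chr9:116175314-116175613, minus strand: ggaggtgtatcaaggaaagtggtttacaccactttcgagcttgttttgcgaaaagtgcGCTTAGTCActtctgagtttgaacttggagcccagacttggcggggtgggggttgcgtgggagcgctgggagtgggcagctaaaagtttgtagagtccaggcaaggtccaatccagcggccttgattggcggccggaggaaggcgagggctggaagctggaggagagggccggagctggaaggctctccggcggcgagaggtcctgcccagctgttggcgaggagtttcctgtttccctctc
Tgfbr1, chr4:47352972-47353271, plus strand: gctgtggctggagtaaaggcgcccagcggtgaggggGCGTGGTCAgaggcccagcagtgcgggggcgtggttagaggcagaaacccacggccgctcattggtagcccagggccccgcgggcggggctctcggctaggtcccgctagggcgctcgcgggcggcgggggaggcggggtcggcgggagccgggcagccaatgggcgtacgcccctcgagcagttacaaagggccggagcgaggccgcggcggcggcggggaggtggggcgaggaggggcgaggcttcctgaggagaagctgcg
Tgfb2, chr1:186705940-186706239, minus strand: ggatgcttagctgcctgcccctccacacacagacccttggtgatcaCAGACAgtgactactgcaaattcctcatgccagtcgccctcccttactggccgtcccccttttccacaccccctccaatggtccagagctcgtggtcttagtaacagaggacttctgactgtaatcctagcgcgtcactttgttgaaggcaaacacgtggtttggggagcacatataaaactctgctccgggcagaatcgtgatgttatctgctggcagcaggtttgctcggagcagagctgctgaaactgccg
The motif in Tgfbr2, GCTTAGTCA at position -192 from the start site, is the reverse complement form of the antioxidant response element core TGACNNNGC. The motif in Tgfbr1, GCGTGGTCA at position -214, is another match to that core, also on the opposite strand. The capitals in Tgfb2 are the Smad CAGA box CAGACA at position -204. The start site of that window lies inside the RefSeq gene. A second Tgfbr1 start site, also inside its gene, has a CAGACA at position -203. The windows of Tgfb1 and Smad3 held none of the motifs, and the Smad palindrome GTCTAGAC was in no member's window. Tgfb3, Tgfbr3, Smad7 and Pmepa1 had no window in the table. Both strands were searched, and of all 32851 promoter windows of 300 bases 12.4% held the antioxidant core, 21.0% the CAGA box and 0.213% the palindrome. A match is a string of letters and was not tested as a binding site.

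Sequencing depth was 27088970 to 37070635 reads per library, recovered from the steps of the deposited CPM values (reads per 1000000 counted), in which every value is a whole number of reads within 0.01. At these depths 3 reads correspond to at most 0.111 CPM. Nfe2l2 fell to 26.1%, 26.8% and 25.2% of its siCtl mean in the PyMT-1099 LT line, the Py2T LT line and MT∆Ecad, in that order. These were differences of -1.91, -1.86 and -1.97 in log2(CPM + 1), with limma adjusted p of 6.91e-04, 8.97e-04 and 9.67e-05. Vim was at 1489 CPM or more in all 12 libraries. Epithelial markers differed between the lines: Cdh1 lay at 47.8 to 62.1 CPM in PyMT-1099 LT, at 12.5 to 18.1 in Py2T LT and at 0.315 to 0.639 in MT∆Ecad. Epcam had no read in PyMT-1099 LT and was at 16.7 to 30.8 CPM in Py2T LT. Cldn4 and Esrp1 were also highest in Py2T LT, at 130 to 234 and 10.0 to 17.8 CPM. Krt14 went the other way from Cdh1, at 142 and 123 CPM in siCtl MT∆Ecad. It read 14.4 and 13.1 in siCtl PyMT-1099 LT and 33.3 and 31.1 in siCtl Py2T LT. Krt8 was at 770 CPM or more and Krt18 at 212 or more in all 12 libraries. Of the 8 leukocyte markers, Ptprc, Cd3e, Adgre1 and Itgam were under 1 CPM in every group, and Lyz2 reached at most 1.23 CPM. Cd68 lay at 1.59 to 6.25 CPM over all libraries. Csf1r, a macrophage growth factor receptor, lay at 23.6 to 42.7 CPM in PyMT-1099 LT, 13.9 to 33.0 in Py2T LT and 1.07 to 2.12 in MT∆Ecad. Cdh5, an endothelial cadherin, reached 88.0 to 124 CPM in PyMT-1099 LT, where Pecam1, Kdr, Tek and Emcn stayed under 1 CPM.

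All 9 genes had at least 1 CPM in 2 or more libraries and entered the test, limma on log2(CPM + 1) with Benjamini-Hochberg adjustment over 12502 genes. Tgfb2 and Tgfbr3 reached that level in 8 of the 12 libraries and were below it in Py2T LT and PyMT-1099 LT, respectively. Tgfb2, Tgfb3 and Tgfbr3 share exonic bases with other annotated transcripts, for Tgfb2 an antisense gene, Gm29491, over 124 bases. Whether the counting used strand is not given in the sources used here, so reads of these overlaps cannot be assigned.

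The ligands were expressed in a different mix in each line. Tgfb1 (Entrez 21803, chr7:25687002-25705077, plus strand), the broadly expressed ligand, read 74.0 and 73.8 CPM in the siCtl libraries of PyMT-1099 LT, 36.2 and 34.5 in Py2T LT, and 26 and 33.4 in MT∆Ecad. No group overlapped another, with PyMT-1099 LT highest. Tgfb1 was lower in Py2T LT than in PyMT-1099 LT by -1.04 (log2, SE 0.173, limma adjusted p = 6.50e-04) and in MT∆Ecad by -1.30 (adjusted p = 1.41e-04). The difference between MT∆Ecad and Py2T LT did not pass (-0.25, 95% interval -0.64 to 0.14).

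Tgfb2 (Entrez 21808, chr1:186622787-186709697, minus strand) read 31.3 and 27.0 CPM in siCtl MT∆Ecad, 21.0 and 17.6 in PyMT-1099 LT, and 0.371 and 0.513 in Py2T LT. Py2T LT thus stood apart from both other lines, at a low level of 11 and 19 reads. MT∆Ecad and PyMT-1099 LT differed by 0.57 (log2, SE 0.121, limma adjusted p = 0.00286). MT∆Ecad exceeded Py2T LT by 4.38 (adjusted p = 2.39e-09).

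Tgfb3 (Entrez 21809, chr12:86056743-86079041, minus strand) had the reverse pattern to Tgfb1. It read 85.4 and 105 CPM in siCtl MT∆Ecad, 52.2 and 51.4 in Py2T LT, and 2.62 and 3.09 in PyMT-1099 LT. All 3 lines were separate: MT∆Ecad was above Py2T LT by 0.86 (log2, SE 0.138, limma adjusted p = 5.47e-04) and above PyMT-1099 LT by 4.64 (adjusted p = 2.15e-09).

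Levels of different genes were set side by side as CPM per kb of the longest protein-coding transcript in the GENCODE annotation of GRCm38. On that scale Tgfb1 made up 88.0% ± 0.820 (SD, n = 2) of the summed ligand level in siCtl PyMT-1099 LT. In siCtl Py2T LT, Tgfb1 was 51.4% ± 0.613 and Tgfb3 48.3% ± 0.545, with Tgfb2 at 0.274%. In siCtl MT∆Ecad, Tgfb3 was 59.2% ± 1.33, Tgfb1 28.6% ± 1.44 and Tgfb2 12.2% ± 2.76. The order of Tgfb1 and Tgfb3 in Py2T LT turned with the length model: per kb of merged exons, Tgfb1 was 31.3% and Tgfb3 68.3%. The leading ligands of the other lines stayed in front under that model, Tgfb1 at 77.8% in PyMT-1099 LT and Tgfb3 at 71.9% in MT∆Ecad. The summed siCtl ligand level was 47.5 CPM per kb ± 5.93 in MT∆Ecad, 38.6 ± 0.465 for PyMT-1099 LT and 31.7 ± 0.700 for Py2T LT.

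**Figure D1:**
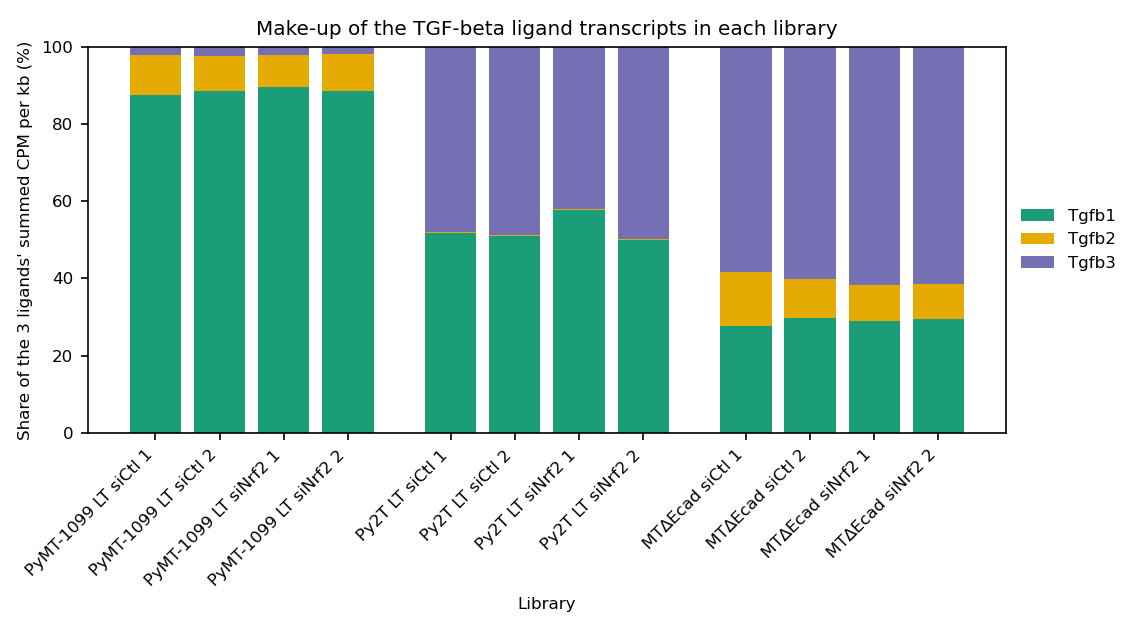
Share of Tgfb1, Tgfb2 and Tgfb3 (percent, y axis) in the summed CPM per kb of coding transcript of the 3 ligands, in each of the 12 libraries (x axis); each bar is a library. Tgfb1 makes up most of the bar in PyMT-1099 LT, Tgfb3 most of it in MT∆Ecad, and Tgfb2 is almost missing from Py2T LT.

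With siNrf2 no ligand passed the test in any line. Tgfb1 read 92.0 and 78.1 CPM in siNrf2 PyMT-1099 LT, both above the siCtl libraries, and 43.1 and 30.7 in siNrf2 Py2T LT, on either side of them. In siNrf2 MT∆Ecad it read 36.6 and 42.4, both above siCtl. The MT∆Ecad difference was 0.41 (log2, SE 0.173) and did not pass (limma adjusted p = 0.143). With the replicate number as a block it passed, at an adjusted p of 0.0194, and so did the mean over the 3 lines, 0.21, at 0.0296 (0.196 without the block).

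Tgfb3 in siNrf2 MT∆Ecad read 122 and 137 CPM, again both above siCtl, a difference of 0.44 (log2, SE 0.138) just outside the threshold (limma adjusted p = 0.0584). It passed with the replicate block (adjusted p = 0.0154), in DESeq2 (0.0337) and with a pseudocount of 5 (0.0294). In siNrf2 Py2T LT it read 48.9 and 47.3, both a little below siCtl, and in PyMT-1099 LT 3.48 and 2.67, overlapping. Tgfb2 overlapped its siCtl libraries in PyMT-1099 LT at 19.8 and 19.7 CPM, in Py2T LT at 0.420 and 0.446, and in MT∆Ecad at 28.3 and 30.9. The 95% intervals of its 3 differences lay between -0.28 and 0.31 in log2.

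The receptors also ranked differently by line. Tgfbr1 (Entrez 21812, chr4:47353222-47414926, plus strand), the kinase that phosphorylates the Smads, read 159 and 199 CPM in siCtl PyMT-1099 LT, 114 and 99.7 in MT∆Ecad, and 24.4 and 31.2 in Py2T LT. Py2T LT was the lowest, below PyMT-1099 LT by -2.65 (log2, SE 0.332, limma adjusted p = 1.02e-04). MT∆Ecad was above Py2T LT by 1.91 (adjusted p = 9.34e-04). MT∆Ecad and PyMT-1099 LT did not overlap, but their difference of -0.74 did not pass (adjusted p = 0.0863).

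With siNrf2, Tgfbr1 read 125 and 221 CPM in PyMT-1099 LT. It read 18.7 and 37.6 in Py2T LT, and 120.4 and 101 in MT∆Ecad. Replicate 2 was the higher library in all 4 PyMT pairs of replicates and the lower in both MT∆Ecad pairs. None of the 3 differences passed, and their intervals, such as -0.85 to 0.65 in PyMT-1099 LT, include changes of either sign.

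Tgfbr2 (Entrez 21813, chr9:116087695-116175363, minus strand), the ligand-binding type II receptor, read 464 and 476 CPM in siCtl MT∆Ecad, 110.4 and 95.6 in PyMT-1099 LT, and 70.4 and 65.8 in Py2T LT. MT∆Ecad was above PyMT-1099 LT by 2.18 (log2, SE 0.115, limma adjusted p = 1.42e-07) and above Py2T LT by 2.77 (adjusted p = 3.51e-08). Py2T LT was below PyMT-1099 LT by -0.59 (adjusted p = 0.00181). Per kb of transcript, the Tgfbr2 level was 0.417 ± 0.107 (SD, n = 2) times that of Tgfbr1 in siCtl PyMT-1099 LT, 1.78 ± 0.391 times in Py2T LT and 3.15 ± 0.349 times in MT∆Ecad.

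Tgfbr2 had the largest knockdown difference among the 9 genes. With siNrf2 it read 779 and 733 CPM in MT∆Ecad, both far above siCtl, a mean 161% of the control mean. The difference of 0.68 (log2, SE 0.115, 95% interval 0.42 to 0.94) passed with a limma adjusted p of 0.00515. In PyMT-1099 LT it read 135 and 117, both above siCtl, a difference of 0.29 (95% interval 0.03 to 0.55). That passed only with the replicate block (adjusted p = 0.0283, against 0.413 without). In Py2T LT it read 76.6 and 63.9, on either side of siCtl, a difference of 0.04. The mean over the lines was 0.34 (SE 0.0662, adjusted p = 0.0145). Without MT∆Ecad siCtl replicate 1, the MT∆Ecad difference was 0.66 with an adjusted p of 0.0502; the other single-library omissions kept the call.

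Tgfbr3 (Entrez 21814, chr5:107106567-107289629, minus strand) was close to an on-off gene between the lines. It had no read in any of the 4 PyMT-1099 LT libraries, where 3 reads would be at most 0.108 CPM. It read 1.48 and 2.02 CPM in siCtl Py2T LT and 60.4 and 60.0 in siCtl MT∆Ecad. Against the level of 3 reads per library, siCtl MT∆Ecad was at least 559-fold higher and siCtl Py2T LT at least 16.3-fold higher than siCtl PyMT-1099 LT. MT∆Ecad exceeded Py2T LT 34.3-fold (log2 difference 4.48, SE 0.109, limma adjusted p = 1.18e-09).

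With siNrf2, Tgfbr3 read 81.3 and 87.7 CPM in MT∆Ecad, both above siCtl, a mean 140% of the control. The difference of 0.48 (log2, SE 0.109, 95% interval 0.23 to 0.73) passed with a limma adjusted p of 0.0173. In Py2T LT it read 1.26 and 1.34 CPM, both below siCtl, a difference of -0.25 (adjusted p = 0.901) at a low level. The MT∆Ecad call was lost without MT∆Ecad siCtl replicate 1 (adjusted p = 0.0919), siCtl replicate 2 (0.0671) or siNrf2 replicate 2 (0.118), and with a pseudocount of 0.1 (0.0772).

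Smad3 (Entrez 17127, chr9:63646766-63757994, minus strand), the receptor-activated Smad, was the most even of the members. It read 160.2 and 148 CPM in siCtl Py2T LT, 116 and 103 in MT∆Ecad, and 115 and 95.2 in PyMT-1099 LT. The last 2 lines overlapped (difference 0.06, 95% interval -0.22 to 0.35), and Py2T LT was above PyMT-1099 LT by 0.55 (log2, SE 0.126, limma adjusted p = 0.00439). MT∆Ecad was below Py2T LT by -0.49 (adjusted p = 0.00883), a call lost without Py2T LT siCtl replicate 1 or MT∆Ecad siCtl replicate 2 (largest adjusted p 0.0701).

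With siNrf2, Smad3 read 146 and 125 CPM in Py2T LT, 112 and 106 in MT∆Ecad, and 105 and 90.7 in PyMT-1099 LT. Only the Py2T LT libraries were both below siCtl. No difference passed, and the mean over lines was -0.10 (limma adjusted p = 0.419), which passed with the replicate block (0.0387).

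Smad7 (Entrez 17131), an inhibitory Smad that blocks the type I receptor and recruits ubiquitin ligases to it, followed the same order. It read 145 and 123 CPM in siCtl Py2T LT, 98.6 and 79.9 in MT∆Ecad, and 88.2 and 77.7 in PyMT-1099 LT. The last 2 lines overlapped, and Py2T LT was above PyMT-1099 LT by 0.68 (log2, SE 0.162, limma adjusted p = 0.00548). MT∆Ecad was below Py2T LT by 0.58 (log2 difference -0.58, limma adjusted p = 0.0128), a call lost without Py2T LT siCtl replicate 1 or MT∆Ecad siCtl replicate 2 (largest adjusted p 0.104).

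With siNrf2, Smad7 read 158 and 129 CPM in Py2T LT, 108 and 85.7 in MT∆Ecad, and 91.3 and 81.0 in PyMT-1099 LT, overlapping siCtl in each line. Replicate 1 was above replicate 2 in every group. The mean over lines was 0.09 (limma adjusted p = 0.599), and 0.0349 was the adjusted p with the replicate block.

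Pmepa1 (Entrez 65112, chr2:173224458-173276731, minus strand), a membrane protein that sequesters receptor-activated Smads, read 644 and 569 CPM in siCtl PyMT-1099 LT, 580.2 and 517 in Py2T LT, and 118 and 129 in MT∆Ecad. The PyMT lines overlapped (difference -0.14, 95% interval -0.46 to 0.17). MT∆Ecad was below PyMT-1099 LT by -2.28 (log2, SE 0.137, limma adjusted p = 3.91e-07) and below Py2T LT by -2.14 (adjusted p = 8.38e-07). MT∆Ecad therefore had the most Tgfbr2 and the least Pmepa1 of the lines. Per kb, Pmepa1 was 6.90 ± 0.0133 (SD, n = 2) times Smad7 in PyMT-1099 LT, 3.87 ± 0.149 times in Py2T LT and 1.33 ± 0.281 times in MT∆Ecad.

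With siNrf2, Pmepa1 read 191 and 192 CPM in MT∆Ecad, both above siCtl, a mean 155% of the control. The difference of 0.63 (log2, SE 0.137, 95% interval 0.32 to 0.94) passed with a limma adjusted p of 0.0149. In PyMT-1099 LT it read 761 and 642, and in Py2T LT 649 and 499.7, overlapping siCtl in both. The mean over lines was 0.30 (SE 0.0793, adjusted p = 0.0423). The MT∆Ecad call was lost without MT∆Ecad siCtl replicate 1 (adjusted p = 0.118), siNrf2 replicate 1 (0.0632) or siNrf2 replicate 2 (0.0955). The mean was lost without any single library except PyMT-1099 LT siNrf2 replicate 2 and Py2T LT siNrf2 replicate 2 (largest adjusted p 0.122).

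**Figure D2:**
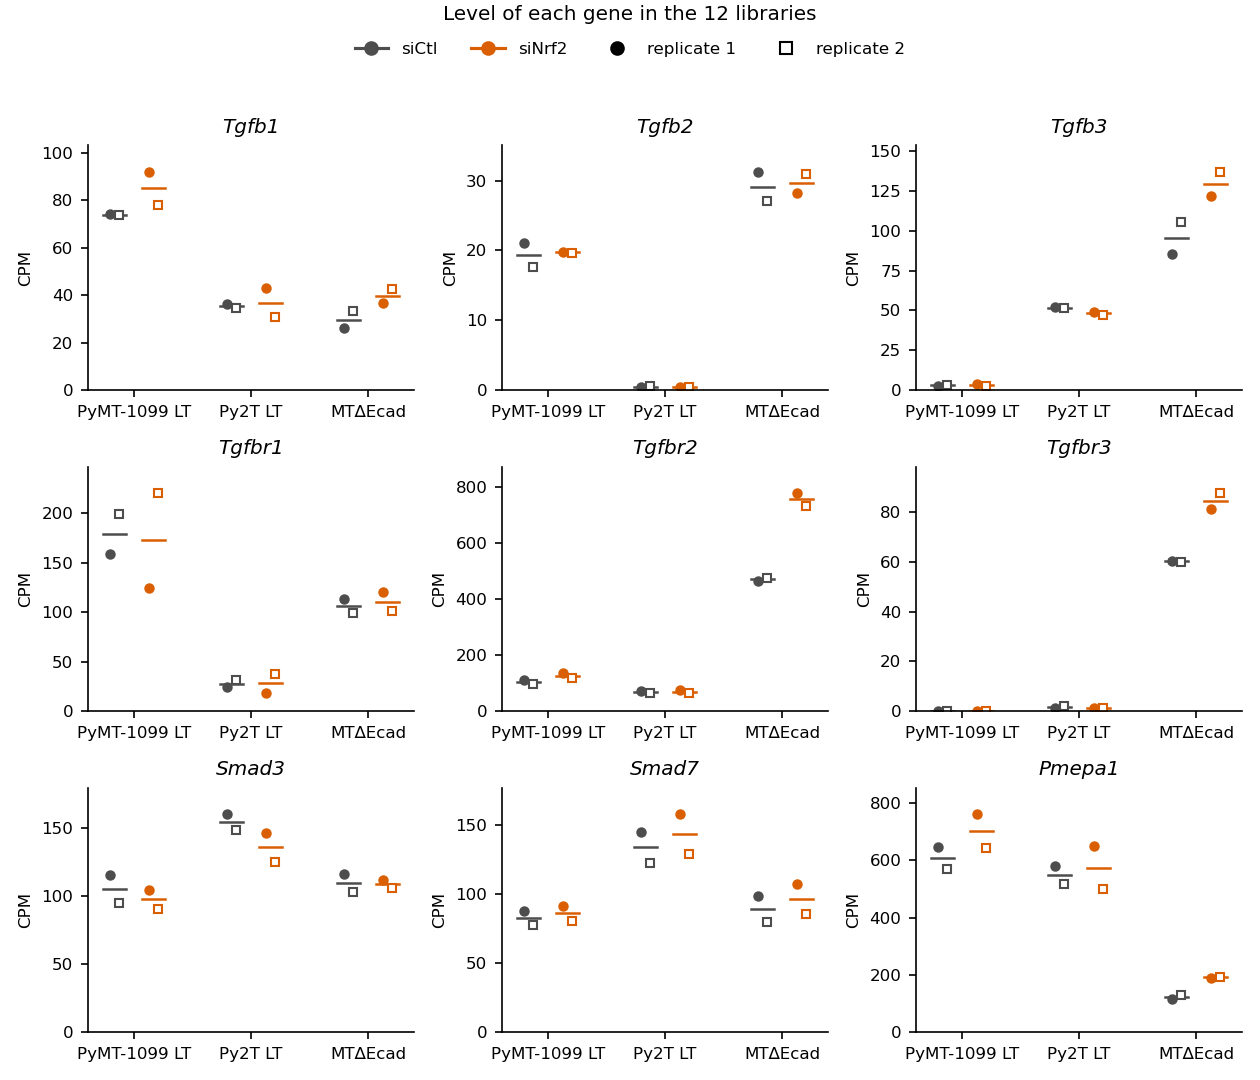
CPM (y axis, from 0) of each gene in each library by line (x axis); grey is siCtl, orange siNrf2, filled circles are replicate 1, open squares replicate 2, and bars are means of 2 libraries. Tgfbr2, Tgfbr3 and Pmepa1 rise with siNrf2 in MT∆Ecad, where their siNrf2 libraries lie at 733 to 779, 81.3 to 87.7 and 191 to 192 CPM.

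Across the 9 genes, the knockdown calls fell as follows. In MT∆Ecad 3 were called, all higher (Tgfbr2, Tgfbr3 and Pmepa1), where 17.3% of all tested genes were called and 8.89% were called higher. The replicate block called 5, adding Tgfb1 and Tgfb3, against 42.6% of all genes. Without MT∆Ecad siCtl replicate 1 none was called, and without siNrf2 replicate 2 only 1. The median difference of the 9 genes was 0.41, against 0 for all tested genes. Both siNrf2 libraries of MT∆Ecad lay above both siCtl libraries for 5 genes (Tgfb1, Tgfb3, Tgfbr2, Tgfbr3 and Pmepa1) and for 32.5% of all genes.

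In PyMT-1099 LT none of the 9 was called, against 0.52% of all genes, and with the block Tgfbr2 alone, against 9.0%. Both siNrf2 libraries exceeded siCtl for Tgfb1 and Tgfbr2, and for 20.0% of all genes. In Py2T LT none was called, against 0.152%, and 3 genes (Tgfb3, Tgfbr3 and Smad3) were lower in both siNrf2 libraries, as were 15.9% of all genes. At an unadjusted p under 0.05, 1 of the 9 (Tgfbr2) passed in PyMT-1099 LT and 1 (Tgfbr3, lower) in Py2T LT, and edgeR and DESeq2 called 0 in both lines. For the mean over lines 2 were called, both higher (Tgfbr2 and Pmepa1), against 12.3% of all genes called and 5.99% called higher. The block called 5, adding Tgfb1, Smad3 and Smad7, against 40.0% of all genes. TMM scaling, edgeR and a fit without a filter each called 1, Tgfbr2.

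The difference of the knockdown effect between the lines was called for none of the 9 by the F test, against 2.18% of all genes; 3 (Tgfbr2, Tgfbr3 and Pmepa1) had an unadjusted p under 0.05, and edgeR and DESeq2 called 0. With the replicate block it was called for Tgfbr2 (adjusted p = 0.00698), Tgfbr3 (0.0184) and Pmepa1 (0.0119), against 19.0% of all genes. Between pairs of lines, the MT∆Ecad effect exceeded that of Py2T LT for Tgfbr3 by 0.73 (log2, SE 0.154, limma adjusted p = 0.0379), the only member called without the block, against 3.5% of all genes. That call was lost in 11 of the 12 fits that each left out a library, all but the one without Py2T LT siCtl replicate 1 (largest adjusted p 0.145), and in edgeR (0.127) and DESeq2 (0.0644). For Tgfbr2 the same difference was 0.64 (95% interval 0.28 to 1.01, adjusted p = 0.0677), and for Pmepa1 0.57 (0.13 to 1.01, adjusted p = 0.151). With the replicate block 4 members were called for this pair, against 22.9% of all genes: Tgfbr2 (limma adjusted p = 0.00310), Pmepa1 (0.00546), Tgfbr3 (0.00818) and Tgfb3 (0.0434). The MT∆Ecad effect set against that of PyMT-1099 LT was called by limma for no member without the block, against 1.81% of all genes. At an unadjusted p under 0.05, 2 passed (Tgfbr2 and Tgfbr3), edgeR and DESeq2 called 0, and a pseudocount of 5 called Tgfbr3 (adjusted p = 0.0343). With the block 3 were called, against 14.5%: Tgfbr2 by 0.39 (adjusted p = 0.0221), Pmepa1 by 0.42 (0.0223) and Tgfbr3 by 0.48 (0.0444). Tgfbr3 had no read in PyMT-1099 LT, so its value for this pair is the MT∆Ecad difference alone.

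**Figure D3:**
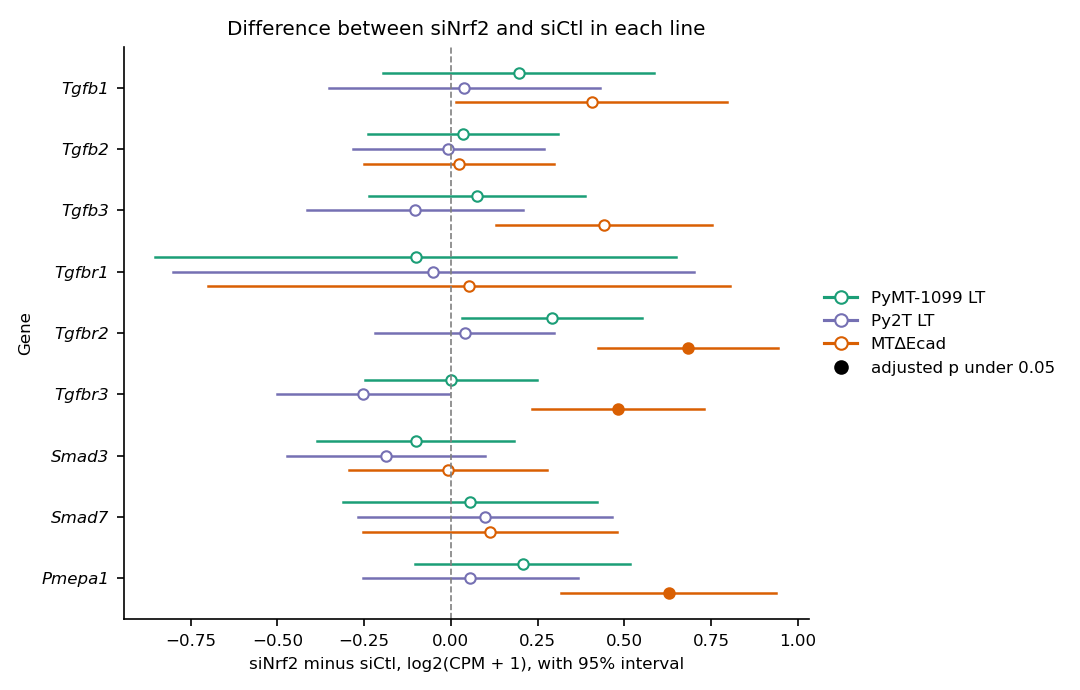
Difference between siNrf2 and siCtl in log2(CPM + 1) (x axis) for each gene (y axis) in PyMT-1099 LT (green), Py2T LT (purple) and MT∆Ecad (orange); points are estimates, lines 95% intervals, and filled points have a limma adjusted p under 0.05. The 3 filled points, Tgfbr2, Tgfbr3 and Pmepa1, are all in MT∆Ecad and all above 0.

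Between the lines, 6 of the 9 were called for siCtl MT∆Ecad against siCtl PyMT-1099 LT, 4 higher and 2 lower, against 57.6% of all genes. For MT∆Ecad against Py2T LT 8 were called, 5 higher and 3 lower, against 54.4%, and for Py2T LT against PyMT-1099 LT 8, 4 in each direction, against 55.6%. These comparisons share siCtl libraries with each other and with the knockdown comparisons. Each line is a single line, so they compare these lines and not kinds of tumour.

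The summed level of mesenchymal markers was higher with siNrf2 in each line, though single markers went either way. The difference was largest in MT∆Ecad, where most of it was Fn1. The summed CPM of the 10 mesenchymal markers was 14240 to 14880 in siCtl and 18910 to 19860 in siNrf2 MT∆Ecad, all 10 being above 1 CPM. Fn1, fibronectin, read 5248 and 5690 CPM in siCtl and 8807 and 9687 in siNrf2. Both siNrf2 libraries lay above both siCtl libraries for 7 of the 10, against 32.5% of all genes. Zeb2 was lower, at 69.8 and 47.3 CPM in siCtl and 44.1 and 38.6 in siNrf2, and the other two overlapped. The 9 fibroblast markers summed to 920 to 1110 CPM in siCtl and 1479 to 1681 in siNrf2, led by Pdgfrb at 661 and 794 against 993 and 1124 CPM. Of that list Thy1, Dpt, Pi16, Lum and Dcn were under 1 CPM in every group. The 8 leukocyte markers summed to 4.87 to 4.96 CPM in siCtl and 7.51 to 8.43 in siNrf2 MT∆Ecad, and the 5 endothelial markers to at most 0.222. The 11 epithelial markers also summed higher there, 1126 to 1230 CPM in siCtl and 1286 to 1293 in siNrf2. That rise was in Krt8 (770 and 874 against 947 and 937 CPM) and Krt18 (212 and 232 against 298 and 297). Krt14 fell, from 142 and 123 CPM in siCtl to 47.4 and 50.1 in siNrf2, and the other 8 were under 1 CPM. In PyMT-1099 LT the mesenchymal sum was 10470 to 10850 CPM in siCtl and 11350 to 11980 in siNrf2. In Py2T LT it was 11730 to 12500 and 12580 to 12870. In PyMT-1099 LT Fn1, Cdh2, S100a4, Sparc and Mmp2 were higher in both siNrf2 libraries, and Zeb2 was lower (46.7 and 59.1 against 22.9 and 37.4 CPM). In Py2T LT Fn1 overlapped, at 8609 and 9655 CPM in siCtl and 9568 and 10206 in siNrf2. Sparc was lower there (171 and 180 against 140 and 127), as was Mmp2, under 1 CPM, and Twist1 was higher (5.70 and 6.34 against 6.85 and 6.61). The part of the marker shift in the rise of Tgfbr2, Tgfbr3 and Pmepa1 was not tested, and in bulk RNA more cells of a type and more RNA per cell cannot be told apart.

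Of 98 other genes of the pathway, in 6 lists, 86 were measured above the filter. In MT∆Ecad 19 rose and 9 fell with siNrf2, 28 of 86 where 17.3% of all genes were called. In PyMT-1099 LT 1 rose, against 0.52%, and in Py2T LT none was called, against 0.152%. For the mean over lines 9 rose and 5 fell, 14 of 86 and near the 12.3% of all genes. With the replicate block 31 rose and 16 fell in MT∆Ecad (42.6% of all genes called), 6 and 8 for PyMT-1099 LT (9.0%), and 26 and 16 for the mean (40.0%). In Py2T LT the block called 1, Lrrc32, which was lower (adjusted p = 0.0207), against 1.02%. The medians of the 86 were 0.12 in MT∆Ecad and 0.04 for the mean, beside 0 and -0.01 for all genes.

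**Figure D4:**
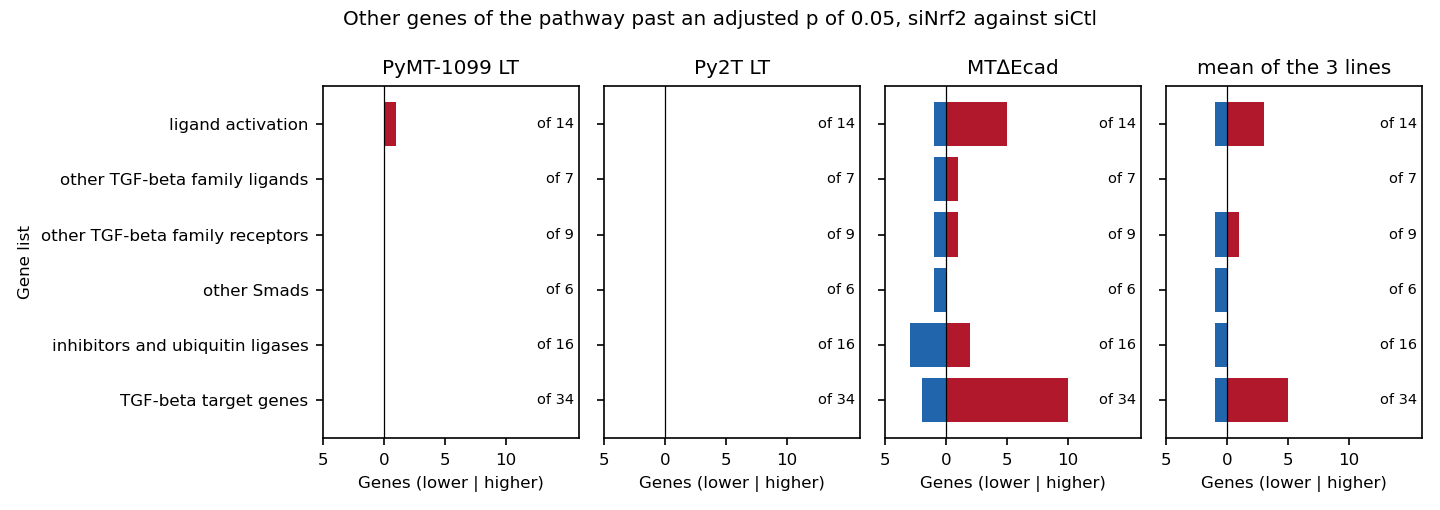
Number of other pathway genes (x axis, lower to the left of 0 and higher to the right) past a limma adjusted p of 0.05 for siNrf2 against siCtl, by gene list (y axis) in each line and for the mean of the 3 lines; the number tested is at the right of each row. Most of the bars are in MT∆Ecad, where 10 of 34 TGF-beta target genes were higher and 2 lower.

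Among the genes that process, store or release the ligands, 14 of 15 were measured, and for the mean over lines 3 rose and 1 fell. Itgb6, the integrin chain that frees latent TGF-beta at epithelial surfaces, was at 7.74 CPM ± 0.522 (SD, n = 2) in siCtl and 15.8 ± 0.541 in siNrf2 PyMT-1099 LT (log2 difference 0.94, SE 0.109, limma adjusted p = 0.0118). It stayed under 1 CPM in the other 2 lines. Furin, the protease that cleaves the ligand precursors, was at 210.4 CPM ± 10.6 in siCtl and 316 ± 7.28 in siNrf2 MT∆Ecad (0.58, adjusted p = 0.0279). Bmp1, a metalloproteinase that cleaves latent TGF-beta binding proteins, rose by 0.25 for the mean over lines (adjusted p = 0.00849). Ltbp4, a protein of the latent complex, fell by 0.27 (adjusted p = 0.0215).

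In MT∆Ecad 5 genes of that list rose and 1, Ltbp4, fell. Itgb8, another integrin chain that activates latent ligand, was at 8.99 CPM ± 0.292 in siCtl and 17.2 ± 0.353 in siNrf2 (0.86, limma adjusted p = 0.00107). Fbn1, the microfibril protein that anchors latent complexes, was at 362 ± 15.3 and 603 ± 71.3 (0.73, adjusted p = 0.00856). Ltbp2 was at 67.6 ± 4.26 and 111 ± 5.19 (0.70, adjusted p = 0.00867). Levels of 2 other genes of the list ranged widely between the lines. Lrrc32, also called GARP, which holds latent TGF-beta at the cell surface, was at 32.5 and 37.5 CPM in the siCtl libraries of PyMT-1099 LT, at 2.23 and 2.89 in Py2T LT and at 0.0369 and 0.0648 in MT∆Ecad. Thbs1, a matrix protein that activates latent ligand, was at 617 ± 33.8, 151 ± 24.5 and 4167 ± 472.

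Of the other ligands of the family 7 of 10 were measured. None was called for the mean over lines, and in MT∆Ecad Inhbb, an activin subunit, rose (38.4 CPM ± 1.71 to 72.2 ± 6.74, log2 difference 0.89, limma adjusted p = 0.00510) while Gdf11 fell (-0.43, adjusted p = 0.0264). Inhba, the other activin subunit, was at 108 CPM ± 18.3 in siCtl Py2T LT, 8.81 ± 1.65 in MT∆Ecad and 0.838 ± 0.134 in PyMT-1099 LT. Bmp4 was at 90.6 ± 1.88 in MT∆Ecad and under 1 CPM in both PyMT lines.

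Among 9 of 12 other receptors measured, Acvr1, a type I receptor, rose for the mean over lines by 0.22 (limma adjusted p = 0.0317), and Acvr2b, an activin type II receptor, fell by 0.25 (adjusted p = 0.0411). The list of Smads outside the members, which also holds the Smad-binding protein Zfyve9, had 6 measured genes. Smad4, the partner shared by all receptor-activated Smads, was the only one of these called, and fell by 0.22 (SE 0.0406, limma adjusted p = 0.0116). In MT∆Ecad its siCtl mean was 105 CPM and its siNrf2 mean 87.4, and these means were 110 and 88.6 for PyMT-1099 LT and 133 and 125 for Py2T LT. Of 16 inhibitors measured, Fst, which binds activins, fell by 0.37 (adjusted p = 0.0305). In MT∆Ecad Fst, Strap and Nedd4l fell and Bgn and Ldlrad4 rose.

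All 34 TGF-beta target genes were measured. For the mean over lines Angptl4, Col3a1, Fn1, Tgfbi and Bhlhe40 rose, and Sox4 fell. All of these rises were largest in MT∆Ecad. Tgfbi was higher only there, with log2 differences of -0.14 for PyMT-1099 LT and -0.22 for Py2T LT. Col3a1 differed by 1.06 in MT∆Ecad, by 0.13 for PyMT-1099 LT and by -0.03 for Py2T LT. Fn1, Bhlhe40 and Angptl4 had positive estimates, and Sox4 negative ones, in every line. Angptl4, a secreted regulator of lipoprotein lipase, had the largest mean difference, 0.65 (log2, SE 0.113, limma adjusted p = 0.00995). Its MT∆Ecad difference, 1.47, was at low levels, 0.522 CPM ± 0.0969 in siCtl and 3.22 ± 0.443 in siNrf2. The Angptl4 difference was 0.44 for PyMT-1099 LT and 0.03 for Py2T LT. In MT∆Ecad 10 rose and 2 fell. Tgfbi, a secreted matrix protein, was at 3.37 CPM ± 0.0909 in siCtl and 11.3 ± 2.90 in siNrf2 (1.47, adjusted p = 0.00117), and Col3a1, a fibrillar collagen, at 922 ± 38.0 and 1920.0 ± 171 (1.06, adjusted p = 9.93e-04). The 2 that fell were Hmga2 (-1.33) and Sox4 (-0.34). Col1a1 and Fn1 are among the 10 and are also on the marker lists above.

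Ccn2, a matricellular protein, is a widely used readout of the pathway and was added with its values known. With siNrf2 it was not called in any line: in MT∆Ecad it was at 112 CPM ± 37.8 in siCtl and 146 ± 27.9 in siNrf2. With the replicate block Ccn2 was called higher there (0.40, limma adjusted p = 0.00526).

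Between the siCtl lines, of the 34 targets 24 were called for MT∆Ecad against PyMT-1099 LT, 10 higher and 14 lower, where 57.6% of all genes were called. Acta2, smooth muscle actin, was at 1939 CPM ± 105 in MT∆Ecad, against 2.51 ± 0.808 for PyMT-1099 LT and 0.179 ± 0.0143 for Py2T LT. Il11, a cytokine, was instead lowest in MT∆Ecad, at 0.627 CPM ± 0.260 against 191 ± 15.3 for PyMT-1099 LT and 117 ± 21.2 for Py2T LT.

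The genes whose pattern over the 12 libraries was most like each member were found among 9226 genes with a mean of at least 10 CPM, by Pearson's r of log2(CPM + 1). The 12 points are 3 lines of 4 libraries each, so r chiefly follows the order of the lines. Tgfbr2 was most like Lamb2 (r = 0.997) and Ppt1 (0.995), and 249 genes had r over 0.95 with it. Tgfbr3 was most like Sorbs3 (0.999) and Myl9 (0.998), Tgfb3 like Fzd6 and H2-K1, and Tgfb2 like Glo1 and Mdfic, these 4 at 0.998. Tgfb1 paired with Ttll1 (0.989) and Acadvl (0.985), Tgfbr1 with Filip1l (0.991) and Pdia3 (0.990), and Pmepa1 with Pld2 (0.991) and Rnf19b (0.990). The even members had few close neighbours: Smad3 had 2 genes over 0.95, Scfd2 (0.974) and Hdac3 (0.951), and Smad7 had 6, led by Pdcd6ip (0.960) and 2310011J03Rik (0.958).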

How the data were processed

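The deposited file is a table of CPM values, reads per 1000000 counted, that the authors made from their counts, with Entrez gene IDs in rows and 12 libraries in columns. Per the labels' protocols, total RNA was depleted of ribosomal RNA, made into strand-specific libraries (TruSeq Stranded Total RNA) and sequenced as single reads. The submitters' processing notes name STAR and the mm10 build; the counting tool, its annotation and its use of strand are not given in the sources used here. Symbols came from RefSeq for 24374 of 24454 IDs, and 80 had no match. The design text calls the 2 replicates biological duplicates, and with 2 a group precision is low: the model has 6 residual degrees of freedom.

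Genes with at least 1 CPM in 2 or more libraries (12502) were fitted with limma 3.58.1 (R 4.3.3) on log2(CPM + 1), a scale that understates changes of low genes, with 6 group means, a trended prior, 95% intervals and Benjamini-Hochberg adjustment over all 12502, at a threshold of 0.05. The fit was also run on simulated data. Its libraries were drawn independently, without the pairing described below, so that run does not bear on calls that the pairing changes. Each CPM value was a whole number of reads (100% within 0.01), so edgeR 4.0.16 and DESeq2 1.42.0 were run on the recovered reads as alternatives, beside other pseudocounts, filters and TMM scaling, a replicate block, each comparison's 4 libraries alone and leaving out each library. Within a line, libraries with the same replicate number deviated together (correlation of deviations between siCtl and siNrf2 0.778 for PyMT-1099 LT, 0.846 for Py2T LT, 0.625 for MT∆Ecad), so the numbers were taken to pair them, and for the members the blocked value is given where it changes a call; for other pathway genes, blocked calls are given as counts.

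The members and gene lists were chosen with earlier results of these data known. All 9 members are named. Other pathway genes are named by rule: per list, up to 4 called for the mean over lines and up to 3 called between siCtl lines, by size, with a mean of at least 2 CPM; those named for MT∆Ecad alone and Ccn2 were added after their values were seen. Some genes are not reported here.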

Additional observations from a re-analysis of the deposited data

Results flagged for a closer look

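The effect of siNrf2 on Tgfbr3 differed between MT∆Ecad and Py2T LT. The difference between the 2 effects was 0.735 in log2(CPM + 1) (SE 0.154, 95% interval 0.39 to 1.08, limma adjusted p = 0.0379), with both siNrf2 libraries above siCtl in MT∆Ecad and both below it in Py2T LT. The Py2T LT effect rests on levels between 1.26 and 2.02 CPM. Leaving out a single library lost the call in 11 of 12 fits.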

How the results depend on the processing

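The replicate block, which leaves 3 residual degrees of freedom, raised the members called from 0 to 1 in PyMT-1099 LT, from 3 to 5 in MT∆Ecad, from 2 to 5 for the mean over lines and from 0 to 3 for the difference between lines. Between siCtl lines the block was a different term, a single shift of replicate 2 common to all lines. That term raised the members called from 6 to 7 in MT∆Ecad against PyMT-1099 LT, adding Tgfbr1 (limma adjusted p = 0.0489), and changed no other count. Across lines the numbers deviated together only between the PyMT lines. For Tgfbr1, replicate 2 was the higher library in the PyMT lines and the lower in MT∆Ecad, so a common shift does not describe it. For the mean over lines, TMM scaling, edgeR and no filter on low values each called 1, with Pmepa1 at adjusted p of 0.0595, 0.0617 and 0.0652. In MT∆Ecad DESeq2 and a pseudocount of 5 each called 4, adding Tgfb3. A pseudocount of 5 called 1 member for the difference between lines. The knockdown effect of Tgfbr1 turned sign in Py2T LT (0.0313 in edgeR, 0.0411 in DESeq2) and for the mean (0.0179 and 0.0261). That of Smad3 turned sign in MT∆Ecad (0.0167 with TMM, 0.0194 in edgeR, 0.0118 in DESeq2). None of these was called.

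Leaving out each library in turn, which leaves an arm with 1 library assumed to vary like the others, gave 0 to 4 called members in MT∆Ecad, 1 to 3 for the mean, 6 to 7 for siCtl MT∆Ecad against PyMT-1099 LT and 6 to 8 against Py2T LT. Effects that turned sign were uncalled throughout. In PyMT-1099 LT they ranged from -0.087 to 0.16 for Tgfb2, -0.069 to 0.22 for Tgfb3, -0.51 to 0.31 for Tgfbr1, -0.24 to 0.034 for Smad3 and -0.036 to 0.15 for Smad7. In Py2T LT they ranged from -0.20 to 0.28 for Tgfb1, -0.078 to 0.064 for Tgfb2, -0.53 to 0.43 for Tgfbr1, -0.089 to 0.17 for Tgfbr2, -0.047 to 0.24 for Smad7 and -0.13 to 0.24 for Pmepa1. In MT∆Ecad they ranged from -0.079 to 0.13 for Tgfb2, -0.073 to 0.18 for Tgfbr1, -0.095 to 0.077 for Smad3 and -0.051 to 0.28 for Smad7. For the mean they ranged from -0.023 to 0.057 for Tgfb2 and -0.19 to 0.13 for Tgfbr1. For siCtl MT∆Ecad against PyMT-1099 LT they ranged from -0.071 to 0.20 for Smad3 and -0.050 to 0.25 for Smad7.

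The Tgfbr3 difference between the MT∆Ecad and Py2T LT effects was called in 1 of 12 such fits, the one without Py2T LT siCtl replicate 1 (range 0.59 to 0.88, adjusted p 0.0417 to 0.145). It was also lost with a pseudocount of 0.1 (0.101), no filter (0.0744), edgeR (0.127) and DESeq2 (0.0644). Over all genes edgeR called fewer than limma: 13 against 65 in PyMT-1099 LT, 6 against 19 in Py2T LT (DESeq2 33), 856 against 1532 for the mean, 20 against 273 for the difference between lines and 83 against 437 for MT∆Ecad minus Py2T LT. The length model, merged exons in place of the longest coding transcript, was added after seeing the data.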
